A study of Mus musculus with 6 samples.

Results

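Ephrins, Slits and netrins are ligands that steer migrating neurons and growing axons, and their transcripts were examined together with those of their receptors in the embryonic mouse cortex. The set comprised the 39 protein-coding genes of the GENCODE mouse M21 annotation whose symbols belong to these families, out of 55401 gene rows in the deposited table. It held 9 EphA receptors, 5 EphB receptors, 5 ephrin-A ligands, 3 ephrin-B ligands, 3 Slits, 3 Robo receptors (Robo1 to Robo3), 4 netrins, 2 netrin-G proteins, and Dcc with 4 Unc5 receptors. Members were set by gene symbol alone, but these families were chosen with earlier results of these data known. Of the 39 genes, 37 had enough counts to be tested, and Robo3 and Ntn5 did not. RNA came from the cortex of C57BL/6 embryos at embryonic day 18. There were 3 libraries from wild-type (WT) embryos and 3 from Csmd3 knockout (Csmd3-/-) embryos, all from matings of heterozygous parents. Which part of Csmd3 was removed is not stated in the labels. Nothing in the labels says that the libraries of a group came from separate embryos, so the p-values measure the spread between these libraries, which may be technical.

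Eph receptors form the largest family of receptor tyrosine kinases. Ephrin-A ligands are held in the membrane by a lipid anchor and ephrin-B ligands by a transmembrane segment, and signals run both into the receptor-bearing and into the ligand-bearing cell. Slits are secreted and repel axons through Robo receptors. Netrins are secreted relatives of laminin that attract through Dcc and repel when Unc5 receptors take part, whereas the netrin-G proteins are lipid-anchored, do not bind Dcc, and pair with the NGL adhesion proteins at synapses. In the cortex these systems are known for the sorting of thalamic and callosal axons, for the positioning of neurons and for progenitor contacts.

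Deposited totals ran from 54244288 to 68269607 estimated counts per library, and 19844 genes were tested. Csmd3 itself had 992, 765 and 867 counts in wild type against 675, 653 and 543 in knockout (change of -0.59 on the log2 scale, SE 0.13, adjusted p = 0.0233), so transcripts from the gene remained. As a check of the labelled tissue, the dorsal cortex marker Emx1 was at 63.2 to 68.5 CPM (TMM-scaled counts relative to library size) in wild type and 62.2 to 67.7 CPM in knockout. Tbr1, a marker of deep-layer cortical neurons, was at 350 to 355 CPM in wild type and at 347, 341 and 139 CPM in knockout libraries 1, 2 and 3. Markers of other cell types differed between the groups. All 12 meningeal and fibroblast markers, 8 of 11 pericyte and smooth muscle markers, 7 of 10 endothelial markers and 8 of 10 macrophage and microglia markers were higher in knockout, and 5 of 8 markers of mature neurons were lower. Of 6 markers of oligodendrocyte precursors, 3 were lower and 1 higher, with sums of 97.4 to 130 CPM in wild type and 86.8 to 104 CPM in knockout. Summed meningeal markers were at 169 to 187 CPM in wild type and 884 to 1197 CPM in knockout. Choroid plexus markers summed to 0.775 to 1.42 CPM in wild type and to 9.55, 46.0 and 487 CPM in knockout libraries 1, 2 and 3, with Folr1 at 0 in wild type. In bulk tissue, fewer cells of a type and less RNA per cell cannot be told apart.

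In the wild-type cortex the ephrin-B ligands stood highest of the 9 groups. Levels are compared between genes as CPM per kb of merged exons. The summed ephrin-B level was 150, 149 and 145 CPM per kb in wild-type libraries 1, 2 and 3, with Efnb2 at 57.1 ± 2.61, Efnb3 at 51.8 ± 9.56 and Efnb1 at 39.1 ± 4.48 CPM per kb (SD, n = 3). These 3 genes took the first 3 places among the 39, and the order of Efnb2 and Efnb3 was within their spread. The ephrin-A ligands (72.1 ± 5.22), EphB receptors (71.3 ± 3.63) and EphA receptors (64.7 ± 3.75 CPM per kb) summed to levels close to each other and below the ephrin-B sum. Among them Efna3 (27.1 ± 2.90) and Efna2 (24.8 ± 0.616), Ephb6 (25.4 ± 2.34), Ephb1 (22.7 ± 0.322) and Epha4 (21.8 ± 2.78 CPM per kb) led. Ephb6 encodes a receptor without kinase activity.

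Per kb of merged exons, the remaining groups were lower and were often held by a single gene. Ntng2 made up 97.7% of the netrin-G sum of 39.1 ± 5.32 CPM per kb, and Slit1 made up 91.6% of the Slit sum of 22.2 ± 3 CPM per kb. Robo1 (16.0 ± 0.934) and Robo2 (16.4 ± 3.32 CPM per kb) did not differ beyond their spread, and Unc5a (24.9 ± 4.52) led the Dcc and Unc5 receptors ahead of Unc5d (10.4 ± 2.63) and Dcc (7.69 ± 1.38 CPM per kb). The secreted netrins summed to only 8.88 ± 0.383 CPM per kb, mostly Ntn4, a netrin of basement membranes, at 5.26 ± 0.577. Ntn1, the main attractant for Dcc, was at 0.762 ± 0.0659 CPM per kb. Robo3, a receptor of commissural axons of the hindbrain and spinal cord, had at most 17 counts in any library, and Ntn5 at most 40. The order depends on gene length: with the longest protein-coding transcript in place of merged exons, Ntng2 moved from place 4 to place 2 and Epha5 from place 16 to place 5, and Efnb2 stayed first. The order of the groups changed too. The netrin-G sum was then 90.9, 86.6 and 69.8 CPM per kb in wild-type libraries 1, 2 and 3. That of the ephrin-A ligands was 70.0, 79.2 and 70.1, and that of the EphB receptors 90.8, 85.7 and 83.2. The EphA sum, at 106, 96.6 and 106, then lay above both in each library, and the Robo sum was 66.9, 60.5 and 74.7. The ephrin-B sum stayed highest, at 176, 175 and 174 CPM per kb.

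**Figure D1:**
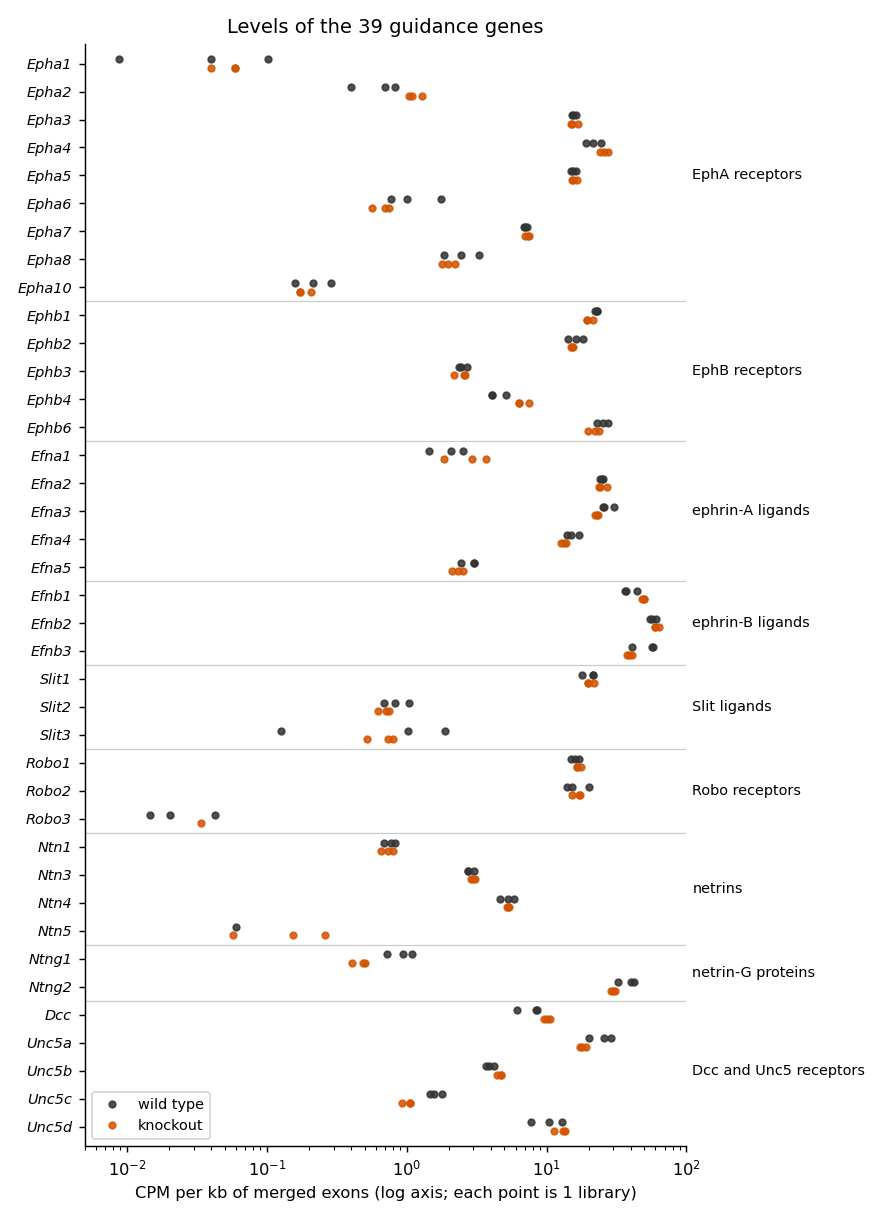
Level of each of the 39 genes in CPM per kb of merged exons (log axis), with 1 point per library, wild type in black and knockout in orange. The ephrin-B ligands lie highest, the points of most genes overlap between the groups, and values of 0 (Robo3 in knockout libraries 2 and 3, Ntn5 in wild-type libraries 2 and 3) are not drawn.

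The comparison of knockout with wild type asked which guidance transcripts differ when Csmd3 is disrupted. Ephb4 and Efnb1 rose, and Unc5c and Ntng1 fell, all by less than 2-fold. Thus 2 of 37 members (5.41%) were higher, against 5.21% of all 19844 genes tested, and 2 (5.41%) were lower, against 2.53% of all genes. The members' median log2 fold change was 0.00, as was that of all genes, and the median absolute log2 fold change was 0.24 in the members and 0.21 in all genes. Knockout libraries all lay above wild type for 5 of 37 members (13.5%, against 15.6% of all genes) and all lay below it for 9 (24.3%, against 13.5%). A further 5 members (Epha2, Efnb3, Ntng2, Dcc and Unc5a) had adjusted p from 0.05 to 0.1. At an unadjusted p under 0.05 in edgeR, 6 of 37 members were higher and 9 lower, against 12.5% and 9.71% of all genes. DESeq2 called 4 members higher and 5 lower, adding these 5, against 7.47% and 4.64% of all genes. With limma-voom and sample weights 2 were higher and 5 lower, against 5.84% and 3.48% of all genes.

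Of the 4 calls, that of Unc5c alone held with each single library left out. Leaving out any 1 library other than wild-type 3, the count of higher members was 0, against 2.29% to 3.25% of all genes. At an unadjusted p under 0.05 in edgeR, 4 to 7 of 37 to 39 tested members were higher in these omissions, against 9.81% to 10.7% of all genes. Without wild-type library 3 it was 3, with Epha4 added, and the count of lower members became 5, with Efnb3, Ntng2 and Unc5a added, against 6.78% higher and 4.62% lower of all genes. The count of lower members was 1 on omission of wild-type 1, wild-type 2, knockout 2 or knockout 3. The share of all genes called lower was then 0.665% to 1.1%. With knockout libraries 2 and 3 both left out, those with the most choroid plexus counts, only knockout library 1 remained. The median log2 fold change was then -0.023 in the members and -0.0096 in all genes, and such a fit cannot decide the calls.

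**Figure D2:**
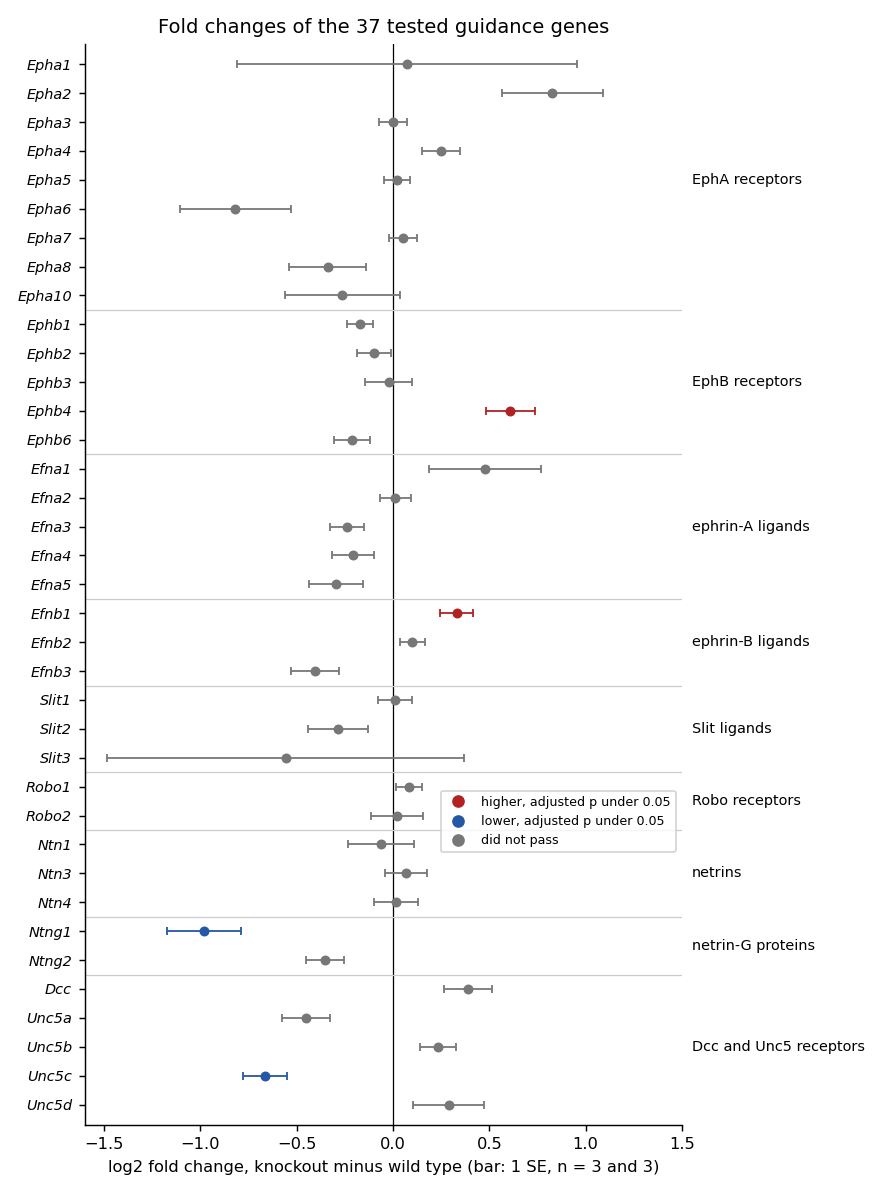
Log2 fold change of each of the 37 tested genes (knockout minus wild type, edgeR) with bars of 1 SE, n = 3 libraries per group, in red for higher and blue for lower at adjusted p under 0.05. Ephb4 and Efnb1 lie to the right, Unc5c and Ntng1 to the left, and the other genes are grey, Slit3 and Epha1 with the widest bars.

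Among the EphB receptors, Ephb4 rose and the other 4 genes did not pass. Ephb4 (ENSMUSG00000029710.15, chromosome 5, 137350109 to 137378669, plus strand, mm10) is the receptor of venous endothelium and binds ephrin-B2. It was at 18.8, 18.9 and 23.9 CPM in wild-type libraries 1, 2 and 3 and at 29.5, 35.0 and 29.5 CPM in knockout. Every knockout library lay above every wild-type library, with wild-type library 3 the closest. That gave 0.61 on the log2 scale (SE 0.13, adjusted p = 0.0203), or 1.53-fold. The adjusted p was between 0.0528 and 0.085 without any single library other than wild-type 3, with log2 fold changes of 0.53 to 0.65. With the replicate number as a block the adjusted p was 0.056. Summed endothelial markers moved in the same direction, from 241 to 273 CPM in wild type to 412 to 509 CPM in knockout, as did the endothelial receptor gene Robo4, which is not a member (change of 0.91 on the log2 scale, SE 0.21, adjusted p = 0.0317). The part of endothelial cells in the value of Ephb4 was not tested. Exons of Ephb4 share 33 of 4640 bases with Zan on the opposite strand, which had 3 to 18 counts per library.

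Ephb1 had 160, 156 and 161 CPM in wild type and 151, 137 and 136 CPM in knockout. These groups did not overlap, but the difference did not pass (change of -0.17 on the log2 scale, SE 0.07, adjusted p = 0.168). Ephb6 was at 104, 96.2 and 86.8 CPM in wild type and 88.8, 83.9 and 75.1 CPM in knockout (adjusted p = 0.216). Ephb2, at 205 ± 24.9 and 191 ± 2.68 CPM, and Ephb3, at 16.6 ± 1.14 and 16.3 ± 1.69 CPM (SD, n = 3), overlapped between the groups. Within the EphB sum, Ephb4 took 5.38%, 5.78% and 7.58% in wild type against 9.16%, 11.3% and 10.1% in knockout, as the plot of shares shows.

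The EphA receptors gave 0 calls in edgeR among 9 tested, against 5.21% of all genes higher and 2.53% lower. At an unadjusted p under 0.05 in edgeR, 2 were higher and 1 lower, against 12.5% and 9.71% of all genes. DESeq2 made 1 call, Epha2, against 7.47% of all genes higher. Epha2, an epithelial and vascular member of the family, was at 3.84, 3.27 and 1.87 CPM in wild type and 4.89, 5.07 and 5.99 CPM in knockout. The groups did not overlap, and wild-type library 3 was the lowest and the farthest from knockout. The difference of 0.83 on the log2 scale (SE 0.26) did not pass (adjusted p = 0.0926 in edgeR). Epha6 lay on the other side, at 9.25, 4.12 and 5.36 CPM in wild type and 2.97, 3.93 and 3.72 CPM in knockout (change of -0.82 on the log2 scale, SE 0.29, adjusted p = 0.131), with wild-type library 1 far above the rest. Without that library its log2 fold change was -0.43.

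None of the abundant EphA receptors passed in edgeR. Epha4, which binds ephrins of both classes, was at 173, 154 and 198 CPM in wild type and 223, 208 and 194 CPM in knockout, so that knockout library 3 lay below wild-type library 3. Its log2 fold change was 0.25 (SE 0.10, adjusted p = 0.169), and without wild-type library 3 it was 0.35 with adjusted p = 0.0355. Epha3 stood at 136 ± 4.36 and 136 ± 9.16 CPM, Epha5 at 261 ± 10.8 and 264 ± 12 CPM, and Epha7, a receptor that patterns cortical areas, at 69.7 ± 2.12 and 72.3 ± 2.15 CPM in wild type and knockout (SD, n = 3). For these 3 genes the SE of the log2 fold change was 0.07. Epha8 and Epha10, the latter encoding a receptor without kinase activity, had log2 fold changes of -0.34 and -0.26 with overlapping groups, and Epha1 had 2 to 24 counts per library.

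Of the ephrin-B ligands Efnb1 rose, while their summed level was close in both groups. Efnb1 (ENSMUSG00000031217.8, chromosome X, 99136130 to 99148991, plus strand, mm10), a ligand of cortical progenitors, was at 125, 127 and 153 CPM in wild-type libraries 1, 2 and 3 and at 172, 165 and 173 CPM in knockout. All knockout libraries lay above all wild-type libraries, and wild-type library 3 was again the nearest. Efnb1 thus rose by 0.33 on the log2 scale (SE 0.09, adjusted p = 0.0476), or 1.26-fold, close to the threshold. The call was lost with RLE scaling (adjusted p = 0.0524) and with a fit that was not robust (0.0678). It was also lost with the replicate number as a block, and without any single library other than wild-type 3 (0.116 to 0.174, log2 fold changes of 0.27 to 0.36). Summed markers of radial glia and progenitors were at 1463 to 1631 CPM in wild type and 1784 to 1898 CPM in knockout, with 5 of 11 higher. The meningeal sums given above also rose. The part of progenitors and of meninges in the value of Efnb1 was not tested.

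Efnb3, a ligand of neurons that also acts as a receptor in reverse, stood at 182, 183 and 130 CPM in wild type and 129, 120 and 124 CPM in knockout. Wild-type libraries 1 and 2 were high, and wild-type library 3 lay just above the knockout libraries. The log2 fold change of -0.41 (SE 0.13) did not pass in edgeR (adjusted p = 0.0932), passed in DESeq2 (0.0243) and in limma-voom with sample weights (0.0398), and was -0.55 without wild-type library 3 (0.00197). Efnb2, the partner of Ephb4, overlapped between the groups at 392 ± 17.9 and 420 ± 16.6 CPM (change of 0.10 on the log2 scale, SE 0.07, adjusted p = 0.429). The summed ephrin-B level was 148 ± 2.55 CPM per kb in wild type and 150 ± 0.687 in knockout (SD, n = 3). Efnb1 took 24.2%, 24.7% and 30.5% of it in wild type against 33.2%, 31.9% and 33.6% in knockout, and Efnb3 took 38.1%, 38.5% and 28.1% against 27.0%, 25.2% and 26.2%.

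Upstream sequence is shown for Ephb4 and Efnb1, the receptor and the ligand that rose, as the 250 bases before their RefSeq starts on GRCm38.p6 (the assembly of mm10), 5′ to 3′. Capitals mark CCAAT and GGGCGG on either strand, which do not overlap here.
Ephb4 (chr5:137349859-137350108, plus strand): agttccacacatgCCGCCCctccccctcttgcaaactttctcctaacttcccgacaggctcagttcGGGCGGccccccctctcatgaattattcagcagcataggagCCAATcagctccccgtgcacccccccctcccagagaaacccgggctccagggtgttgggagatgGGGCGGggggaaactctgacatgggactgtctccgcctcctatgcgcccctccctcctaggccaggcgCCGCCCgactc
Efnb1 (chrX:99135811-99136060, plus strand): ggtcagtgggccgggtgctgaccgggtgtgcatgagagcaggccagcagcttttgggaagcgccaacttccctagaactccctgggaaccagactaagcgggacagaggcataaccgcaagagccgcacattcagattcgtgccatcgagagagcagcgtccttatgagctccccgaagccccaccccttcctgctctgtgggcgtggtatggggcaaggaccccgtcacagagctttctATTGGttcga
The Ephb4 window held 4 copies of GGGCGG and 1 of CCAAT, with a GC content of 64%. The Efnb1 window held 0 copies of GGGCGG and 1 of CCAAT, with a GC content of 60%. Over the 32851 RefSeq windows of the same length, 32.7% held GGGCGG and 33.8% held CCAAT on either strand, and the median GC content was 52.4%. Of the 39 windows matched to 34 of the member genes, 27 held GGGCGG and 13 held CCAAT. The windows of Unc5c and Ntng1 lie within annotated exons and are not shown. These matches describe letters and were not tied to the expression values.

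The ephrin-A ligands gave 0 calls in edgeR, DESeq2 and limma-voom among 5 tested, against 5.21% of all genes higher and 2.53% lower in edgeR. Of these ligands 1 (Efna3) was lower at an unadjusted p under 0.05 in edgeR, against 9.71% of all genes. Efna3 was at 62.4, 74.0 and 61.2 CPM in wild type and 57.2, 54.3 and 56.0 CPM in knockout, and Efna4 at 23.8, 27.4 and 22.5 against 22.2, 21.2 and 20.3 CPM. In both genes the groups did not overlap but came close, and wild-type library 2 was highest. Their log2 fold changes were -0.24 (SE 0.09, adjusted p = 0.153) and -0.21 (SE 0.11, adjusted p = 0.307). Efna5, a repellent of thalamic axons, was at 11.4 ± 1.36 and 9.33 ± 0.81 CPM, Efna2 at 52.8 ± 1.31 and 53.3 ± 3.90 CPM, and Efna1, a ligand also found in vessels, at 3.69 ± 1 and 5.15 ± 1.69 CPM, each with overlapping groups. Exons of Efna3 and Efna4 overlap genes on the opposite strand by 344 of 2434 and 168 of 1599 bases, and those genes had 43 to 86 and 112 to 239 counts per library.

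**Figure D3:**
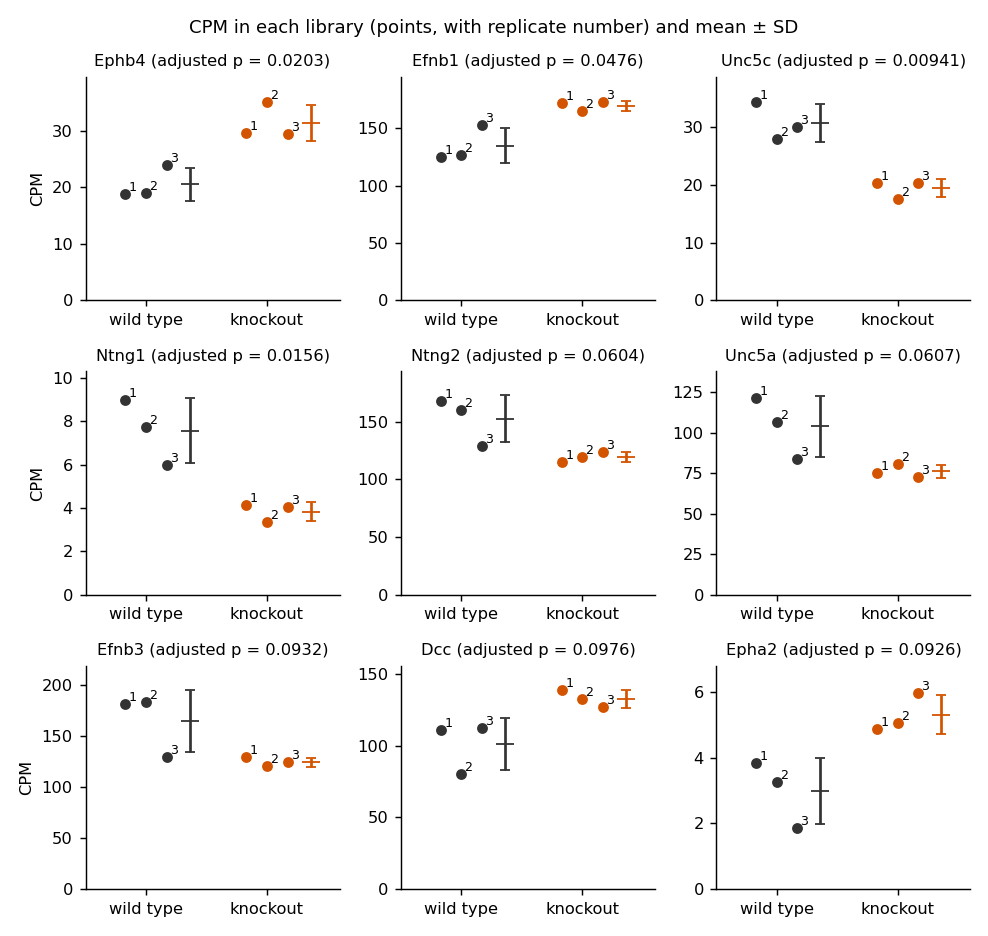
CPM of 9 guidance genes in each library (points, labelled with the replicate number) with mean ± SD over 3 libraries, wild type in black and knockout in orange. The 4 genes that passed (Ephb4, Efnb1, Unc5c, Ntng1) and the 5 with adjusted p from 0.05 to 0.1 are shown, and wild-type library 3 lies nearest to the knockout libraries in all of them but Unc5c and Epha2, in Dcc only just ahead of wild-type library 1.

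No tested Slit or Robo transcript separated the groups with all 6 libraries in use. None of the 3 Slits and the 2 tested Robo receptors was called by edgeR, DESeq2 or limma-voom, and 0 had an unadjusted p under 0.05 in edgeR. Over all genes edgeR called 5.21% higher and 2.53% lower, with 12.5% and 9.71% at the unadjusted threshold. Without wild-type library 3, 2 of 3 Slits were lower and 1 of 3 Robo receptors higher at an unadjusted p under 0.05 in edgeR. The shares of all genes there were 11.7% lower and 14.1% higher, and no Slit or Robo gene was called. Slit1 stood at 120 ± 11.9 and 121 ± 6.82 CPM, Robo1 at 264 ± 15.4 and 279 ± 8.75 CPM, and Robo2 at 279 ± 56.4 and 283 ± 20.4 CPM in wild type and knockout (SD, n = 3). The SE of the log2 fold change was 0.09 for Slit1, 0.07 for Robo1 and 0.14 for Robo2. Slit2, which repels callosal and thalamocortical axons at the midline, was at 26.4, 20.9 and 17.4 CPM in wild type and 19.1, 18.0 and 15.9 CPM in knockout (change of -0.29 on the log2 scale, SE 0.16, adjusted p = 0.332).

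Slit3 varied more within wild type than between the groups. It had 682, 360 and 44 counts in wild-type libraries 1, 2 and 3, or 11.4, 6.20 and 0.768 CPM, and 335, 201 and 247 counts in knockout, or 4.88, 3.18 and 4.46 CPM. The knockout libraries lay between the wild-type extremes, and wild-type library 3 was far below all others. The log2 fold change of -0.56 (SE 0.93, adjusted p = 0.799) became 0.24 without wild-type library 1 and -1.08 without wild-type library 3, so no direction can be given.

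Of Dcc and the Unc5 receptors, Unc5c fell and the other 4 genes did not pass. Unc5c (ENSMUSG00000059921.15, chromosome 3, 141465216 to 141834924, plus strand, mm10), a repulsive netrin receptor, fell from 34.3, 27.9 and 30.0 CPM in wild-type libraries 1, 2 and 3 to 20.3, 17.6 and 20.3 CPM in knockout. The highest knockout value lay well below the lowest of wild type. On the log2 scale the change was -0.66 (SE 0.12) with adjusted p = 0.00941, the smallest adjusted p of the members, and the call remained with each single library left out (highest adjusted p = 0.0421). With knockout libraries 2 and 3 both left out the log2 fold change was -0.59, but a fit with 1 knockout library cannot decide the call. Exons of Unc5c share 118 of 19135 bases with Gm15688 on the opposite strand, which had 0 to 65 counts per library.

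Unc5a did not pass, at 121, 107 and 83.8 CPM in wild type and 75, 80.4 and 72.6 CPM in knockout. Wild-type library 3 lay close to the knockout libraries, and the change of -0.45 on the log2 scale had SE 0.12 (adjusted p = 0.0607 in edgeR). It passed in DESeq2 (adjusted p = 0.0101), in limma-voom (0.0288), with counts divided by 4 (0.0482) and without wild-type library 3 (-0.58, 0.00453). Exons of Unc5a share 34 bases with Hk3 on the opposite strand, which had 18 to 109 counts per library. Summed markers of mature neurons were at 5907, 5917 and 4730 CPM in wild type and 4144, 4035 and 3936 CPM in knockout, so wild-type library 3 was the lowest wild-type library there too. The part of neuronal content in the values of Unc5a and Unc5c was not tested.

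Dcc, Unc5b and Unc5d had positive log2 fold changes that did not pass. Dcc, the attractive netrin receptor, was at 111, 80.4 and 112 CPM in wild type and 139, 132 and 127 CPM in knockout. The groups did not overlap and wild-type library 2 was low, with a log2 fold change of 0.39 (SE 0.12, adjusted p = 0.0976 in edgeR, 0.0404 in DESeq2). Unc5b, which is also expressed by endothelial cells, was at 26.1, 24.3 and 23.3 CPM in wild type and 29.5, 27.7 and 29.4 CPM in knockout (change of 0.23 on the log2 scale, SE 0.09, adjusted p = 0.185), and the part of the endothelial markers in this value was not tested. Unc5d, a receptor of migrating upper-layer neurons, was at 95.9, 71.2 and 120 CPM in wild type and 122, 124 and 105 CPM in knockout, with overlapping groups (0.29, SE 0.18, adjusted p = 0.432). The sum over Dcc and the Unc5 receptors was 48.5 ± 4.76 CPM per kb in wild type and 46.6 ± 2.15 in knockout (SD, n = 3). Unc5a took 53.9%, 57.2% and 42.9% of it in wild type against 37.9%, 40.0% and 39.5% in knockout, and Dcc took 15.7%, 13.6% and 18.2% against 22.2%, 20.9% and 21.8%.

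**Figure D4:**
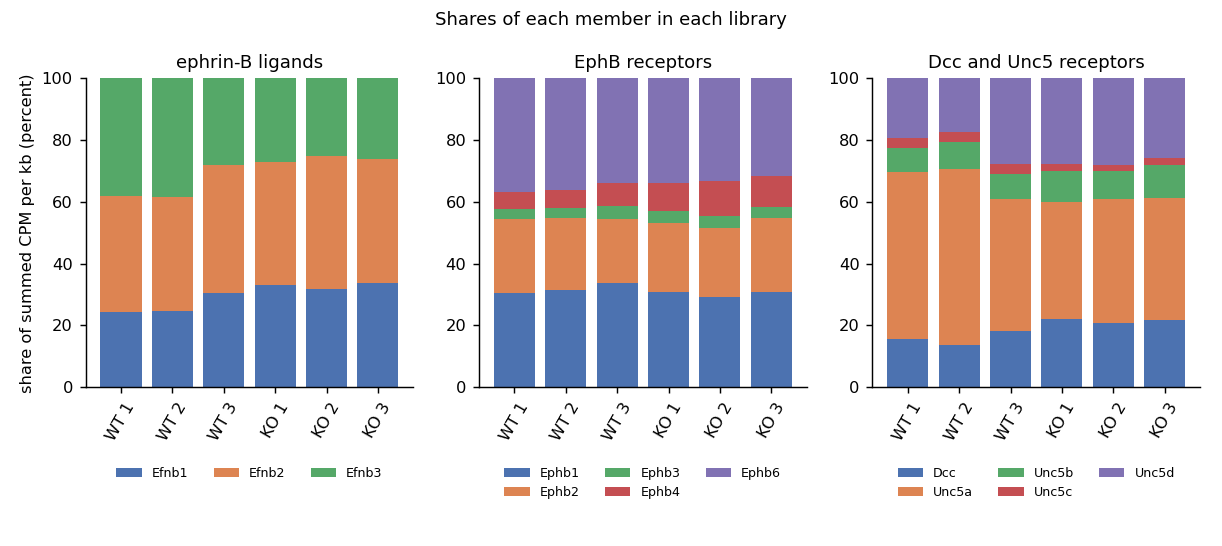
Share of each gene in the summed CPM per kb of the ephrin-B ligands, the EphB receptors and Dcc with the Unc5 receptors, as stacked bars per library (WT, wild type, and KO, knockout). In ephrin-B, the share of Efnb1 is 24.2% to 30.5% in wild type and 31.9% to 33.6% in knockout, and wild-type library 3 resembles the knockout libraries most in the ephrin-B and in the Dcc and Unc5 panels.

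The secreted netrins gave 0 calls in edgeR, DESeq2 and limma-voom among 3 tested, and 0 had an unadjusted p under 0.05 in edgeR. The edgeR shares of all genes were 5.21% higher and 2.53% lower, or 12.5% and 9.71% unadjusted. Ntn1 was at 4.78 ± 0.413 and 4.58 ± 0.445 CPM, Ntn3 at 14.5 ± 0.809 and 15.2 ± 0.398 CPM, and Ntn4 at 19.7 ± 2.16 and 19.9 ± 0.338 CPM in wild type and knockout (SD, n = 3). All 3 overlapped between the groups. Ntn3 shares 89 of 5109 exon bases with Tbc1d24 on the same strand, a gene with 5924 to 8047 counts per library, and how reads there were assigned was not tested. Ntn5, not tested, had 8, 0 and 0 counts in wild type against 40, 8 and 19 in knockout, and overlaps Sec1, which had 0 counts in wild type and 12 to 30 in knockout, by 519 exon bases on the opposite strand.

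The netrin-G genes were both lower in all knockout libraries, and the rarer of them passed. Ntng1 (ENSMUSG00000059857.15, chromosome 3, 109780040 to 110144011, minus strand, mm10), known from thalamocortical axons, was at 9, 7.72 and 5.99 CPM in wild-type libraries 1, 2 and 3 and 4.12, 3.35 and 4.04 CPM in knockout. The groups did not overlap, and wild-type library 3 was the lowest of its group. The log2 fold change of -0.98 (SE 0.19, adjusted p = 0.0156) was the largest of the 4 calls. Leaving out wild-type 1, wild-type 2, knockout 2 or knockout 3 ended the call (adjusted p = 0.058 to 0.0629), with log2 fold changes of -1.01 to -0.85. Ntng2, the netrin-G of cortical neurons, was at 168, 160 and 129 CPM in wild type and 115, 119 and 124 CPM in knockout (change of -0.35 on the log2 scale, SE 0.10, adjusted p = 0.0604). It passed in DESeq2 (0.0188), in limma-voom (0.0274), with counts divided by 4 (0.0444) and without wild-type library 3 (-0.46, 0.00496). Ntng2 shares 558 of 3990 exon bases with 6530402F18Rik on the same strand, a gene with 2674 to 3713 counts per library. How reads there were assigned was not tested. Thalamic and diencephalic markers summed to 56.2 to 71.8 CPM in wild type and 69.5 to 74.1 CPM in knockout. Most of this was Slc17a6, at 49.5 to 60.9 CPM in wild type and 56.5 to 61.2 CPM in knockout. Lhx9 was at 3.64, 1.05 and 0.367 CPM in wild type and 1.67, 3.67 and 1.41 CPM in knockout. Sox14 was at 0 in all libraries, and Gbx2 had 0, 8 and 0 counts in wild type and 0 in knockout. Of their partners, Lrrc4c, the ligand of Ntng1, was at -0.40 (SE 0.11, adjusted p = 0.0626) and Lrrc4, the ligand of Ntng2, at 0.05 (SE 0.08, adjusted p = 0.782) on the log2 scale. The markers of mature neurons were lower too, and their part in the netrin-G values was not tested. These partners are named for their pairing with the netrin-G genes, with their values already seen.

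Around the members, 4 lists of pathway genes were read from the same fit. Their counts stand beside 5.21% of all genes higher and 2.53% lower. Of 21 co-receptors, further ligands and partners of netrins, 3 were higher and 1 lower (median log2 fold change -0.02). Those higher were the glypican gene Gpc3 (3.48, SE 0.19, adjusted p = 1.73e-05), the adenosine receptor gene Adora2b (2.44, SE 0.46) and the vascular adhesion gene Mcam (0.79, SE 0.13), and the latrophilin gene Adgrl3 was lower (-0.36, SE 0.09). Adora2b had few counts, with 22, 15 and 8 in wild-type libraries 1, 2 and 3 and 85, 117 and 61 in knockout. Its call was lost without knockout library 2 (adjusted p = 0.0628), and that of Adgrl3 on omission of wild-type 1, wild-type 2, knockout 1 or knockout 2 (up to 0.167). Of 23 Slit and Robo partners, 1 was higher, Robo4, and 3 were lower, namely Nell1 (-1.21, SE 0.31), the Robo3 ligand gene Nell2 (-0.33, SE 0.07) and the syndecan gene Sdc3 (-0.32, SE 0.08; median of the list 0.03). The 3 lower calls did not hold on omission of any 1 library except wild-type 3 (adjusted p up to 0.154, 0.136 and 0.195), nor did that of Robo4 on omission of wild-type 2 or any knockout (up to 0.122).

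The other lists held cytoplasmic effectors, to be read beside the same shares of all genes. Of 21 effectors of netrin receptors, the guanine exchange factor gene Dock1 was higher (0.66, SE 0.13) and the neuronal tubulin gene Tubb3 lower (-0.42, SE 0.09), with a list median of -0.06. Of 29 effectors of Eph receptors and ephrins, 3 were higher and 1 lower (median 0.00). The adaptor gene Grb10 rose from 66.4 to 169 CPM (1.35, SE 0.07, adjusted p = 1.65e-05) and kept its call with each single library left out. The phosphatase genes Ptpn13 (0.52, SE 0.10) and Inppl1 (0.41, SE 0.08) were higher, and Ngef, which encodes the exchange factor ephexin that acts below EphA receptors, was lower (-0.64, SE 0.14, adjusted p = 0.0249). The call of Ngef did not hold on omission of any 1 library except wild-type 3 (adjusted p up to 0.113). That of Dock1 ended on omission of wild-type 1, wild-type 2 or knockout 3 (up to 0.0791), and that of Tubb3 on omission of wild-type 1 or any knockout (up to 0.0983). Those of Ptpn13 and Inppl1 ended on omission of wild-type 1, knockout 1 or knockout 3 (up to 0.068 and 0.0773). Tubb3 is also in the list of mature neuron markers. Meningeal and endothelial markers rose alongside the higher genes of these lists, and their part in those values was not tested.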

How the data were processed

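Bulk RNA-seq counts of 6 libraries (3 per genotype) were used, grouped by the sample titles. The values are estimated counts deposited by the authors as whole numbers; in wild-type library 1, 1298 genes had a count of 4 but 492 had 3 and 318 had 5, so a fragment appears to add about 4. Such counting limits precision for genes near 0. Per the submitters' processing notes, HISAT2 2.0.5, StringTie 1.3.4, Trim Galore 0.4.4 and FastQC 0.11.9 were used with mm10, with no step stated. Counting program, annotation and strand setting: not given in the sources used here. Identifiers were matched to GENCODE M21 (55141 of 55401 rows named; unnamed rows held at most 0.0238% of counts); all 39 members matched with identical versions.

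Genes kept by filterByExpr were scaled by TMM and tested by the robust quasi-likelihood F-test of edgeR 4.0.16 in R 4.3.3. Adjusted p-values are Benjamini-Hochberg over all 19844 genes, threshold 0.05, and come from edgeR unless another tool is named. SE is the absolute log2 fold change over the square root of F. Levels between genes are per kb of merged exons; the length of the longest coding transcript was an alternative chosen after seeing the data. The test was checked on simulated data with changes of 2-fold or more, so that check does not cover the smaller changes of the members called. Alternatives used DESeq2 1.42.0 and limma-voom with sample weights (limma 3.58.1), other scalings, filters and omitted libraries. Members past the threshold and those with separated groups are given by library, and up to 6 pathway genes past it are named per list. Other members were named after their values were seen. Some markers of dorsal cortex are not reported here. The members and lists were chosen with earlier results of these data known.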

Additional observations from a re-analysis of the deposited data

How the results depend on the processing

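The count of higher members (2) was 1 with RLE scaling (5.09% of all genes) and 1 with a fit that was not robust (4.6%). It was 4 with DESeq2 (7.47%) and 0 with the replicate number as a block (3.46%). With single libraries left out it was 0 to 3 (2.29% to 6.78%). The count of lower members (2) was 5 with DESeq2 (4.64% of all genes), 5 with limma-voom (3.48%) and 4 with counts divided by 4 (3.75%). With single libraries left out it was 1 to 5 (0.665% to 4.62%). Under the block, 5 of 37 members were higher at an unadjusted p under 0.05 in edgeR, against 11.9% of all genes. Over all genes, 1033 higher and 503 lower became 686 and 255 with the replicate block, 262 and 43 without knockout libraries 2 and 3, and 472 to 1402 and 137 to 956 with single libraries left out; DESeq2 called 921 lower. The fit without knockout libraries 2 and 3 assumes that the lone knockout library varies like the others. Same-numbered libraries did not deviate together (correlations of 0.03, -0.00 and 0.00). The labels do not say whether they share a litter or day, and with so few libraries these correlations cannot settle it. The block took the calls of Ephb4 (adjusted p = 0.056) and Efnb1 (0.067). The members' median log2 fold change was -0.068 to -0.011 with single libraries left out. Slit3 ranged from -1.08 to 0.24. The causes were not tested.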

Other observations

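Ratios of deposited counts within a library do not depend on scaling between libraries. For 5 pairs of members, chosen after their values were seen and so given without a test, the groups did not overlap. Efnb1 over Efnb3 was 0.689, 0.695 and 1.18 in wild-type libraries 1, 2 and 3 against 1.33, 1.37 and 1.39 in knockout. Ephb4 over Ephb1 was 0.117, 0.121 and 0.149 in wild type against 0.196, 0.256 and 0.217 in knockout. The ratio of the attractive netrin receptor gene Dcc to the repulsive Unc5c was 3.24, 2.88 and 3.75 in wild type against 6.85, 7.52 and 6.23 in knockout, and Dcc over Unc5a was 0.917, 0.753 and 1.34 against 1.85, 1.65 and 1.75. Unc5d over Unc5c was 2.80, 2.55 and 3.99 in wild type against 6.00, 7.06 and 5.14 in knockout. Wild-type library 3 was nearest to the knockout libraries in all 5 ratios. Unequal change within a library does not show which member of a pair changed.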
